A study of Mus musculus with 5 samples.

Results

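The mouse genes named Zfp followed by a number are a large family of zinc finger genes, and their gene bodies were set against H3K27me3 peak lists of mouse embryonic fibroblasts (MEFs). Members were the protein-coding genes of chromosomes 1 to 19 in the GENCODE vM1 annotation of mm9 whose symbol begins with Zfp and a digit. There were 362 such gene records with 358 symbols, 4 of them carried by 2 records each, among 21418 protein-coding genes. The rule used symbol, gene type and chromosome only. H3K27me3, the repressive mark written by Polycomb Repressive Complex 2 (PRC2), had been profiled by ChIP-Seq in 5 libraries, with 1 library per group, and lists of enriched regions (peaks) of 3 libraries were used. All cells derived from MEFs of an E13.5 embryo whose Eed gene, which encodes a core PRC2 subunit, carried loxP sites. The cells of the 3 lists had been transduced with lentivirus for H3.3 K27R, a lysine-to-arginine histone, for H3.3 K27M, the lysine-to-methionine oncohistone that inhibits PRC2, or for human EZHIP, a protein that inhibits PRC2 in a similar way, from a constitutive promoter with puromycin selection. The parental cells and the Eed deletion line, a single clone made with Cre recombinase, were not analysed here, so the K27R list served as the comparator. The lists hold positions only, without height, score or read depth, and no library had a replicate, so no test between lists was possible. Where an interval follows a share of genes, it is an exact Clopper-Pearson 95% interval. It covers counting error over genes only, and neighbouring genes are not independent. Shares of length and of positions are printed without an interval.

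Most proteins of this family read DNA with tandem C2H2 zinc fingers. Many carry an amino-terminal KRAB domain, which recruits the corepressor TRIM28 and the H3K9 methyltransferase SETDB1, and bind and silence retroelements or imprinted loci. KRAB zinc finger genes have multiplied by local duplication and lie in tandem clusters, whereas some members without KRAB, including Zfp423 and Zfp521, encode regulators of development. The translated members were checked against the name. At least 3 C2H2 fingers were found in 321 of the 362 members and a KRAB motif in 156. The motif was a strict pattern in the longest translation of each gene, so a member without a match may still carry a KRAB domain. Members were split by position: 169 lay in 25 clusters of 3 or more members with gaps of at most 200 kb, 48 formed 24 pairs, and 145 were isolated, with no other member within 200 kb. Only members counted as neighbours. The KRAB motif was also found in 111 other protein-coding genes, so an isolated member may still lie near zinc finger genes with other names. A KRAB motif was present in 108 of the clustered members (63.9%) and in 29 of the isolated members (20%). The median number of fingers was 11 in clustered and 7 in isolated members.

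The promoters of 8 members show how different the sequences at these start sites are. The first 4 belong to the members whose start site lay in all 3 lists, the next 2 to members with a start site in the K27R list only and long K27R cover, and the last 2 to Zfp809 and Zfp57, silencers of a retrovirus and of imprinted loci, which had no peak within 5 kb. Each run is the 200 bp before the gene start, read 5′ to 3′ on the strand of the gene, and capitals mark the dinucleotide CG, which reads CG on both strands.
Zfp663 (chr2:165194230-165194429, mm9, minus strand): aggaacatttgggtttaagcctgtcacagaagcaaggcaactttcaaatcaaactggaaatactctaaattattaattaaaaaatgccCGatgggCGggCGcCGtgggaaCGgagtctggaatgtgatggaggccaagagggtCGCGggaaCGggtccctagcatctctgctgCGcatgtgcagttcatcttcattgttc
Zfp536 (chr7:38554772-38554971, mm9, minus strand): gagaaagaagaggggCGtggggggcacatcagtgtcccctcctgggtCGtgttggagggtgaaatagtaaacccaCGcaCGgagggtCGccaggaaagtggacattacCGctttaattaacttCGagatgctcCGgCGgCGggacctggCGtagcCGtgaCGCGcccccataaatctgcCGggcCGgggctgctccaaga
Zfp423 (chr8:90483495-90483694, mm9, minus strand): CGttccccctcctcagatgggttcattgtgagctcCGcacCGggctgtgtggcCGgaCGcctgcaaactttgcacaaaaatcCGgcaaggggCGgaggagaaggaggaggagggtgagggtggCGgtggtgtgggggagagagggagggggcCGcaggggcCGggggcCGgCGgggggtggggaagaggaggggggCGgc
Zfp105 (chr9:122831990-122832189, mm9, plus strand): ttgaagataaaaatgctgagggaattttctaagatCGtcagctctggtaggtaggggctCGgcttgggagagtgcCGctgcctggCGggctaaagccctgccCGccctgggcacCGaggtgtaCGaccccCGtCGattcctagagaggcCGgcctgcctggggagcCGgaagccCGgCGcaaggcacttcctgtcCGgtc
Zfp385a (chr15:103170518-103170717, mm9, minus strand): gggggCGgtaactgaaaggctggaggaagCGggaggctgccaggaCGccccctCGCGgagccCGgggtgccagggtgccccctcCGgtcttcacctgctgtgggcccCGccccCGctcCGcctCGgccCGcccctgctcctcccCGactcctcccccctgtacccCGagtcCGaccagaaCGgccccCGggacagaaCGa
Zfp677 (chr17:21520512-21520711, mm9, plus strand): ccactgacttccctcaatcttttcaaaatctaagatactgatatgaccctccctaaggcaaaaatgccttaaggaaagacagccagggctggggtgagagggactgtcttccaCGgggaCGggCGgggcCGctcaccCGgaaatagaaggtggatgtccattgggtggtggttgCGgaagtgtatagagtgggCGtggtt
Zfp809 (chr9:22030074-22030273, mm9, plus strand): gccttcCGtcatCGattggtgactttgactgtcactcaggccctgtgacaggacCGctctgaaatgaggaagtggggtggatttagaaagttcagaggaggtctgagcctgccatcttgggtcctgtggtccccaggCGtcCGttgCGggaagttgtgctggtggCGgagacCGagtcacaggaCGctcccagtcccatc
Zfp57 (chr17:37137908-37138107, mm9, plus strand): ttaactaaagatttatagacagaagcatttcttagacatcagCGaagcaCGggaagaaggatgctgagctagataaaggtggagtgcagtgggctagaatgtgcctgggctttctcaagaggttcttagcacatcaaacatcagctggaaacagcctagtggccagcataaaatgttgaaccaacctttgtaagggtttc
The 4 promoters in all lists held 9, 16, 13 and 14 CG, that of Zfp385a held 18 and that of Zfp677 held 7. Zfp809 held 9 CG, as many as Zfp663, and Zfp57 held 2. At least 1 CG was present in 95% of the members' promoters and in 90.5% of all 21418 promoters of this length. The median was 8 CG over all members, 8.5 over the 48 with a start site in the K27R list and 8 over the 314 outside it. Isolated members with a start site in the K27R list had a median of 13.5 and those outside it 10, while clustered members had 7 in both. Other genes went the other way, with 5 in the list and 9 outside it. The 10 members with a start site in the K27M or EZHIP list had a median of 13.5, and the 2152 other genes of that kind had 11, against 7 over all other genes.

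Fewer Zfp gene bodies than gene bodies in general overlapped H3K27me3 in each list. In the K27R list, 67 of 362 members overlapped a peak (18.5%, 14.6 to 22.9%), against 34.2% of all protein-coding genes. In the K27M list, 14 did (3.87%, 2.13 to 6.40%), against 11.3%. In the EZHIP list, 12 did (3.31%, 1.72 to 5.72%), against 10.9%. The members were lower than the background in all 3 lists, and no interval reached it. Start sites showed the same order. The start site was inside a K27R peak in 48 members (13.3%, 9.94 to 17.2%), against 28.2% of all genes. It was inside a K27M peak in 8 members (2.21%, 0.959 to 4.31%), against 8.94%, and inside an EZHIP peak in 6 (1.66%, 0.611 to 3.57%), against 7.96%. Olfactory receptor genes, the other large clustered family, overlapped a K27R peak by body in 224 of 1106 (20.3%, 17.9 to 22.7%). That interval overlapped the members'. By body, 0.995% of them overlapped a K27M peak and 1.45% an EZHIP peak. Their start site was in a K27R peak in 213 (19.3%, 17 to 21.7%), in a K27M peak in 10 and in an EZHIP peak in 12. Zbtb genes, another zinc finger family, overlapped a K27R peak by body in 9 of 37 (24.3%, 11.8 to 41.2%). This interval held both the members' value and the background. Zbtb bodies overlapped a K27M peak in 10.8% and an EZHIP peak in 8.11%.

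Clustered and isolated members had overlapping intervals in the K27R list, and their order depended on which members were counted. The body overlapped in 29 of 169 clustered members (17.2%, 11.8 to 23.7%) and in 31 of 145 isolated members (21.4%, 15 to 29%). The start site was inside a peak in 22 clustered (13%, 8.34 to 19%) and 20 isolated members (13.8%, 8.63 to 20.5%). Paired members had 7 of 48 bodies (14.6%) and 6 start sites (12.5%) in the list. In the K27M list, the body overlapped in 3 clustered (1.78%, 0.368 to 5.10%) and 10 isolated members (6.90%, 3.36 to 12.3%). In the EZHIP list, it overlapped in 3 clustered (1.78%, 0.368 to 5.10%) and 8 isolated members (5.52%, 2.41 to 10.6%). In all 3 lists the intervals of clustered and isolated members overlapped. Isolated bodies were also longer, with a median of 18.8 kb and an upper quartile of 39.5 kb, against 13.5 and 19.3 kb in clustered members. Every member over 50 kb with a K27M or EZHIP peak was isolated. Of isolated members up to 50 kb, only Zfp600 and Zfp488 overlapped a K27M peak, and only Zfp541 and Zfp641 an EZHIP peak. The order in the K27R list turned without chromosome 7, with 24.8% of clustered and 22% of isolated bodies, and 20% of clustered and 13.6% of isolated start sites. It widened among members with at least 90% unique 32-mers, with 11.8% of clustered and 22.5% of isolated bodies.

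**Figure D1:**
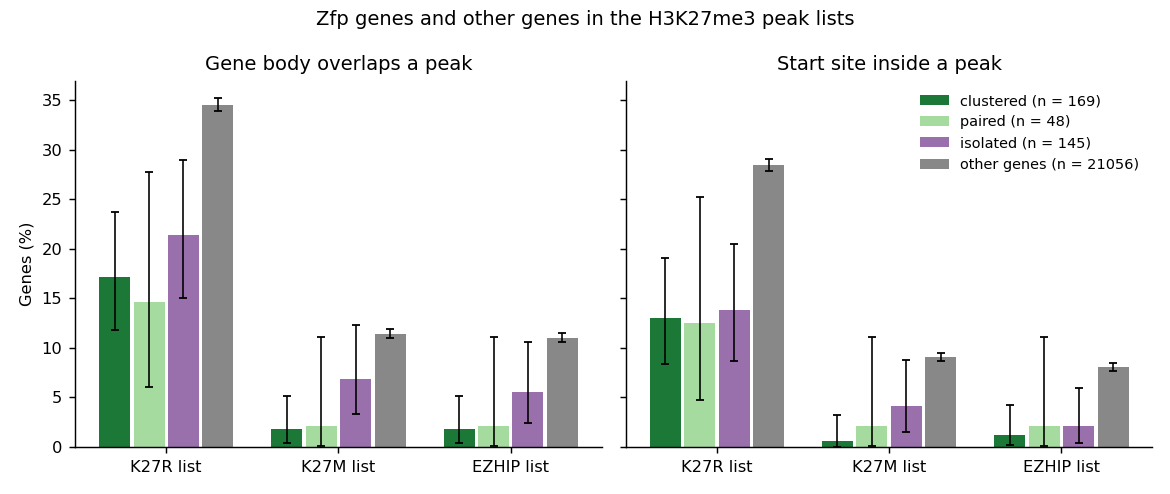
Share of genes (%, vertical axis from 0) whose body overlaps a peak (left) or whose start site is inside a peak (right) in the K27R, K27M and EZHIP lists, for 169 clustered, 48 paired and 145 isolated Zfp members and 21056 other protein-coding genes. Lines are exact Clopper-Pearson 95% intervals for counting error; in the K27R list each Zfp class stands below the other genes (34.5% by body).

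By body length, members of up to 10 kb overlapped a K27R peak in 21 of 111 (18.9%, 12.1 to 27.5%), against 31.9% of other genes of that length. Members of 10 to 20 kb did in 15.2% against 32.8%, and members of 20 to 50 kb in 14.1% against 32.9%. Of the 34 members over 50 kb, 14 did (41.2%, 24.6 to 59.3%), against 42.2%. The members were thus lower in the classes up to 50 kb, and over 50 kb the value of other genes lay inside their interval.

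All Zfp bodies together measured 10.1 Mb, of which 16% was inside K27R peaks, 0.923% inside K27M peaks and 0.720% inside EZHIP peaks. Other genes had 19.1%, 2.0% and 1.72%. The K27R value of the members rested on 3 isolated genes, Zfp536, Zfp423 and Zfp385b, which held 834 kb or 51.5% of the covered length, and without them 8.78% of the members' length was covered. Clustered bodies were covered to 7.55% by K27R, 0.178% by K27M and 0.109% by EZHIP peaks. Isolated bodies were covered to 20.1%, 1.17% and 0.983%, and to 9.34%, 0.895% and 0.606% without those 3 genes.

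K27R peaks became sparse at the borders of the Zfp genes. Between 12.5 and 47.5 kb upstream of the start, 27.3 to 29% of positions around members were inside K27R peaks, close to the 28.8 to 30.5% around other genes. The share around members was 26.8% at 7.5 kb and 19.9% at 2.5 kb upstream, 13% in the first decile of the body and 9.94% in the middle. After the end it was 11.9% at 2.5 kb, 17.7% at 7.5 kb, 21% at 12.5 kb and 25.7% at 47.5 kb. Other genes had 29.7% at 2.5 kb upstream, 27% in the first decile, 24.3 to 24.6% in the middle and 28.6% at 47.5 kb downstream. The dip was therefore deeper at members than at other genes. Isolated members went from 33.1% at 12.5 kb upstream to 9.66% mid-body, and clustered members from 24.9% to 10.1%. These shares count each gene once, unlike the summed lengths above, in which long bodies weigh more.

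**Figure D2:**
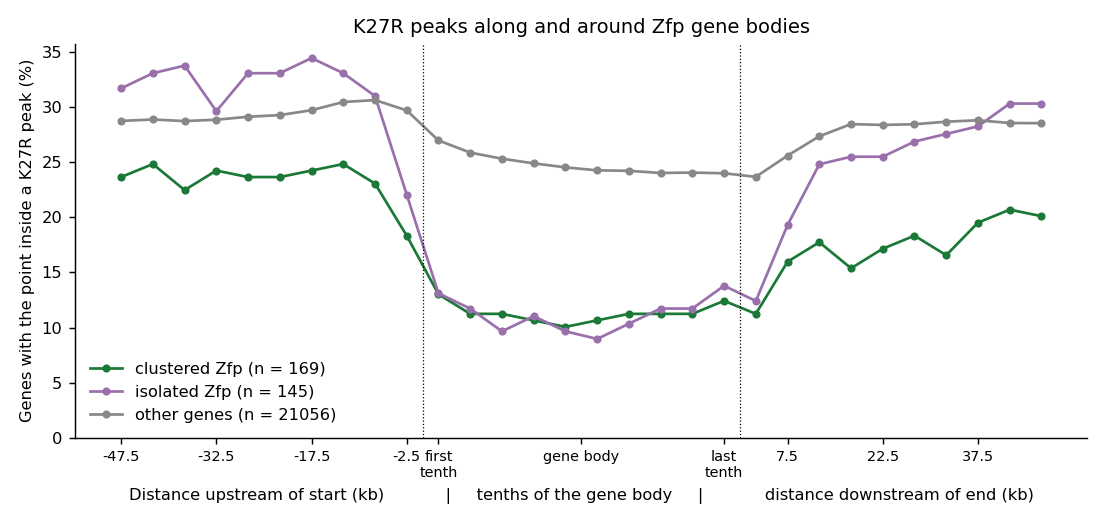
Share of genes (%, vertical axis from 0) with a K27R peak at positions from 47.5 kb upstream of the start (left), through deciles of the gene body (between the dotted lines) to 47.5 kb downstream of the end (right), for 169 clustered and 145 isolated Zfp members and 21056 other genes. Flanks are in kb and the body is scaled; both Zfp classes fall to about 10% in the body, while other genes go from 27% in the first decile to 24% in the last.

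Many members had a K27R peak that came close to the start site without covering it. A peak lay within 5 kb of the start site in 100 members (27.6%, 23.1 to 32.5%), and in 52 of these it did not reach the start site itself (52%, 41.8 to 62.1%). Other genes had a peak within 5 kb in 36.6%, and the start site was missed in 22.3% of those (21.4 to 23.2%). In 49 of the 52 members (94.2%, 84.1 to 98.8%) the near peak was upstream only, against 1259 of 1720 other genes (73.2%, 71 to 75.3%). All 24 isolated members of this kind had it upstream only, as did 19 of the 21 clustered ones. The comparison of members with other genes by start site thus depended on the window: the gap was 13.3 against 28.5% at the start site, and 27.6 against 36.6% within 5 kb. What ends the peaks there was not tested.

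**Figure D3:**
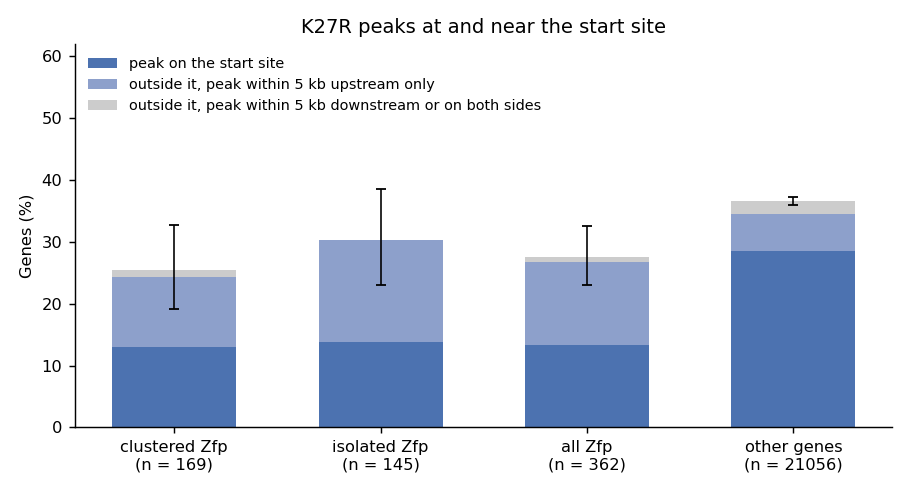
Share of genes (%, stacked bars from 0) with a K27R peak on the start site, with a peak within 5 kb upstream only, or with one within 5 kb downstream or on both sides, for clustered, isolated and all Zfp members and 21056 other genes. Lines are exact 95% intervals of the stack's total; the upstream-only portion is larger in the members, 49 of 362, than in other genes, 1259 of 21056.

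Of the 67 members in the K27R list, 28 (41.8%, 29.8 to 54.5%) were covered from end to end, 17 only at the start side, 13 only at the end side, 3 at both ends and 6 only inside. Other genes in the list were covered whole in 53%. The peaks over members were broad. The 73 K27R peaks that touched a member had a median width of 57.6 kb, against 15.6 kb for all autosomal K27R peaks, and 34 of them also held the start site of another gene. A longer peak touches more genes by construction, so the widths carry no comparison with other peaks. Members in the K27R list without a K27M or EZHIP peak had their longest K27R cover at Zfp407 (40.6 kb, 8.79% of the body), Zfp385a (26.2 kb, the whole body), Zfp652 (16.4 kb, 13.4%), Zfp677 (15.5 kb, the whole body) and Zfp831 (15.2 kb, 22.6%).

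Within clusters, K27R peaks lay between the Zfp genes more than on them. The 25 clusters spanned 7.20 Mb on 12 chromosomes, of which 17.2% was inside K27R peaks, against 20.1% of the autosomes. Member bodies were covered to 7.64% and the space between them to 22.6%. That space included the bodies of other genes, of which the spans held 91, with 26 overlapping a K27R peak. The sum leaned on the Zfp871 to Zfp101 and Zfp354c to Zfp354a clusters, covered between members to 75.2% and 90.9%. All other genes of those clusters overlapped a K27R peak. The space between was covered more than the bodies in 16 clusters and less in 3, and 6 clusters held no K27R peak. Summed over all clusters, K27M and EZHIP peaks followed the same order, with 0.182% and 0.111% on bodies and 0.724% and 1.11% between them. The K27M sum rested on few clusters, with 20.4 kb between members of the Zfp354c to Zfp354a cluster alone. In the Zfp709 to Zfp961 cluster (1.60 kb) and in that of Zfp653 (0.097 kb) all K27M cover was on bodies. A clear example was the cluster from Zfp560 to Zfp846 (chr9:20149580-20399638), where the bodies were covered to 0.936% and the space between to 61.5%.

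The clusters differed widely. The largest (chr13:67139530-67927937) had 23 members, of which 2, Zfp459 and Zfp874a, overlapped a K27R peak, and 4.57% of its span was covered. The next (chr17:21520712-22593656) had 15 members, 2 of them overlapping, Zfp677 and Zfp943, and 8.71% cover. The third (chr7:30553571-30954746) had 14 members, of which Zfp568 alone overlapped, and 1.35% cover. In each of these 3 clusters, the largest by members, the share of the span covered was below that of the autosomes.
Other clusters were largely covered. The cluster from Zfp871 to Zfp101 (chr17:32908181-33531586) had 13 members, 6 of them overlapping, and 373 kb of K27R peaks, or 59.9% of its span. Its 8 other genes all overlapped as well. The cluster from Zfp354c to Zfp354a (chr11:50624588-50886301) had 6 members, 3 of them overlapping, and 195 kb or 74.6%, and its 8 other genes also all overlapped. It held 20.4 kb of K27M and 15.4 kb of EZHIP peaks, none of them on a member. In the cluster from Zfp709 to Zfp961 (chr8:74411163-74517307), each of the 4 members overlapped, with 48% of the span covered.
In 10 of the 25 clusters, with 52 members, no member overlapped. Chromosome 7 held 64 clustered members in 9 clusters, and 3 of them overlapped (4.69%, 0.977 to 13.1%). The other 105 clustered members overlapped in 26 (24.8%, 16.9 to 34.1%). Other genes of chromosome 7 overlapped in 19.8% and those elsewhere in 36%, so chromosome 7 was low for both.

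**Figure D4:**
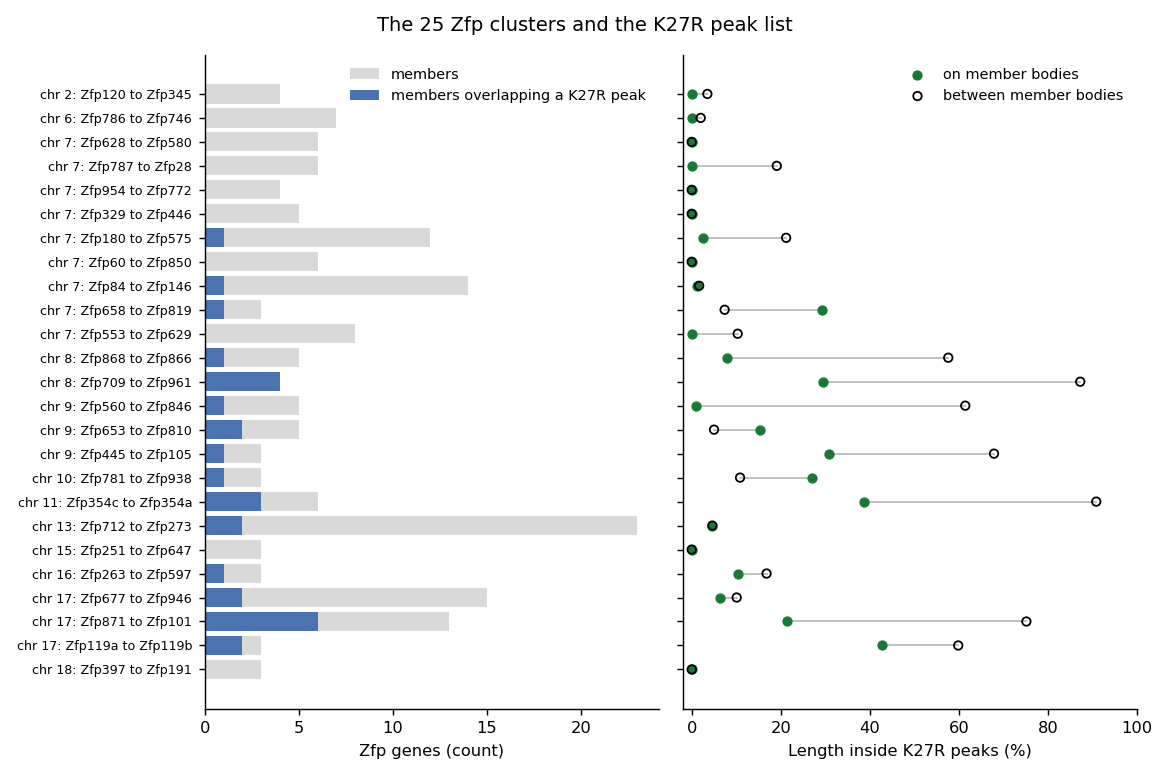
The 25 Zfp clusters, named by chromosome and by first and last member. Left, count of members (grey) and of members overlapping a K27R peak (blue); right, the percentage of length inside K27R peaks on member bodies (green) and between them (open circles), where the space between stands higher in 16 clusters.

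A gene of the K27R list was said to keep a peak where it also overlapped one in the K27M or EZHIP list, and over all members fewer Zfp genes than other genes did. Of the 67 members with K27R, 13 also overlapped a K27M peak (19.4%, 10.8 to 30.9%), against 32.8% (31.7 to 33.9%) of other genes. An EZHIP peak was kept in 11 (16.4%, 8.49 to 27.5%), against 31.8% (30.7 to 32.9%). By start site, 8 of 48 members (16.7%, 7.48 to 30.2%) kept K27M and 5 (10.4%, 3.47 to 22.7%) kept EZHIP, against 31.8% and 28.3%. Isolated members kept K27M in 9 of 31 bodies (29%, 14.2 to 48%) and clustered members in 3 of 29 (10.3%, 2.19 to 27.4%). For EZHIP the counts were 8 of 31 (25.8%, 11.9 to 44.6%) and 2 of 29 (6.90%, 0.846 to 22.8%). Isolated members were higher in both lists, with overlapping intervals. The members over 50 kb that kept a peak were all isolated, and the part of body length in this order was not tested. The lower share of the members did not hold in every class. Of the 14 members over 50 kb in the K27R list, 8 kept K27M (57.1%, 28.9 to 82.3%), against 43.3% of other genes of that length, and 6 kept EZHIP (42.9%, 17.7 to 71.1%), against 41.6%. By start site, 5 of 6 such members kept K27M, against 45.7%, and 2 kept EZHIP, against 38.8%. Among members with at least 90% unique 32-mers, 11 of 42 kept K27M (26.2%, 13.9 to 42%), against 37.4%, and 9 kept EZHIP (21.4%, 10.3 to 36.8%), against 36.4%, so that these intervals reached the other genes. The lists differ in the smallest distance between neighbouring regions and come from single libraries. The part of either in these shares was not tested.

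A K27M or EZHIP peak (a residual peak) overlapped the body of 18 of 362 members (4.97%, 2.97 to 7.74%), against 13.3% of all protein-coding genes. Of the 18, 12 were isolated, 5 clustered and 1 paired. Both lists marked 8 of them (2.21% of members, against 8.87% of all genes), the K27M list alone 6 and the EZHIP list alone 4. The start site lay in both lists in 1.10% of members, against 6.81% of all genes, namely at Zfp423, Zfp536, Zfp105 and Zfp663. Zfp423 (chr8:90185709-90483494, minus strand), a multi-finger regulator of cerebellar and adipocyte development, lay wholly in a K27R peak of 611 kb. It kept 12 kb in the K27M list and 7.29 kb in the EZHIP list, in peaks of 17.6 and 17.2 kb over the start site and, in K27M, 5 kb at the other end of the gene. Zfp536 (chr7:38103693-38554771, minus strand), a regulator of neural differentiation, had 327 kb of its 451 kb body in K27R peaks. It kept 8.37 kb in K27M and 19 kb in EZHIP, and was the only 1 of the 8 with the longer cover in EZHIP. Zfp105 (chr9:122832190-122840146, plus strand), the only clustered member in both lists, kept 3.01 kb in K27M and 2.21 kb in EZHIP of 7.96 kb in K27R. Zfp663 (chr2:165176797-165194229, minus strand), a KRAB gene, kept 9.83 and 3.63 kb of 17.4 kb. At each of these 4 genes a K27M and an EZHIP peak took in the promoter printed above. Zfp536 also had a K27M peak from 23 to 26.4 kb into the body, and further EZHIP peaks between 23.4 and 53.8 kb. Residual peaks of either list covered at most 56.4% of the body.
The start site was in the K27M list alone at Zfp385b, Zfp804a, Zfp488 and Zfp800. Zfp385b kept 8.5 kb in K27M and 6.20 kb in EZHIP of 209 kb in K27R, with its EZHIP peak inside the body. Zfp804a, whose human counterpart is a risk gene for psychiatric disease, kept 2.42 and 1.20 kb of 4.42 kb. Zfp488, an oligodendrocyte regulator, kept 2.35 kb in K27M of 11.7 kb and no EZHIP peak. Zfp800 kept 1.20 kb in K27M of 123 kb and no EZHIP peak. The start site was in the EZHIP list alone at Zfp641, with 1.76 kb of 10.5 kb, and at Zfp167, where the peak took in only 0.012 kb of the body. The difference between K27M and EZHIP at these 6 genes has no replicate check.
At the other 8 members the residual peak missed the start site. Zfp385c, of the Zfp385 family, had the longest cover, with 20 kb in K27M and 17.6 kb in EZHIP. Zfp64 kept 9.20 kb and 4.60 kb, both within the body. Zfp541, a gene of male meiosis, lay wholly in K27R and kept 8.68 kb in EZHIP at its end and none in K27M. Zfp644 kept 7.80 kb in K27M, in a K27R peak of 664 kb that also held the start site of Barhl2, a neural homeobox gene. Zfp617 kept 1.60 kb in K27M and Zfp811 kept 0.650 kb in EZHIP. At Zfp653 the K27M peak took in 0.097 kb of the body and covered the start site of its neighbour Elavl3, a neuronal RNA-binding protein gene. Zfp600, in a KRAB family linked to retroelements, had 7 kb of K27M peak and no K27R peak. Only 9% of 32-mers sampled from Zfp600 occurred once in the genome.

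**Figure D5:**
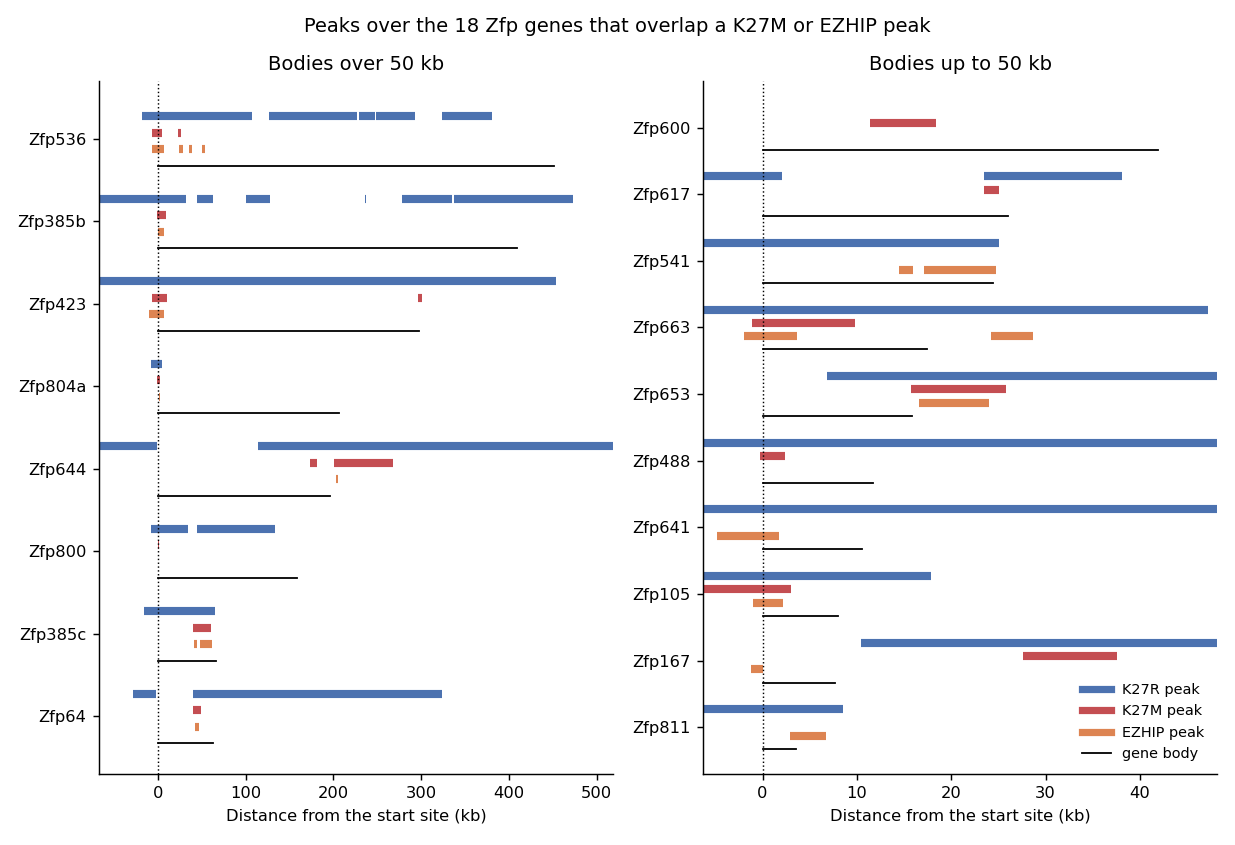
Peaks of the K27R (blue), K27M (red) and EZHIP (orange) lists over the 18 Zfp members with a K27M or EZHIP peak, drawn to scale by distance from the start site (kb, dotted line at 0), with the gene body as a black line, for bodies over 50 kb (left) and up to 50 kb (right). Peaks are drawn to the edge of each panel, and those of about 1 kb, as at Zfp800 and Zfp804a, are hairlines; red and orange marks sit at the start site in some genes and inside the body in others.

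CpG islands, by the counts of this work, lay within 500 bp of the start site in 212 members (58.6%, 53.3 to 63.7%) and 53.1% of other genes, more in isolated (70.3%) than in clustered members (47.9%). Among island start sites, 24 of 212 members (11.3%, 7.39 to 16.4%) were in a K27R peak, against 23.2% of other genes. Among start sites without an island, 24 of 150 members (16%, 10.5 to 22.9%) were, against 34.4%. The members were lower in both classes. Of the 24 island start sites in K27R, 7 (29.2%, 12.6 to 51.1%) were kept in K27M and 5 (20.8%, 7.13 to 42.2%) in EZHIP, against 56.2% and 49% of other genes. Of the 24 without an island, 1 was kept in K27M (4.17%, 0.105 to 21.1%) and none in EZHIP (0%, up to 14.2%), against 13.1% and 12.5%. Members with an island kept more start sites than those without, as other genes did, and kept fewer than other genes in each class, with the interval reaching their value for start sites without an island.

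Start sites were also counted by fingers and KRAB motif. Members with a KRAB motif and at least 3 fingers had 23 of 153 start sites in K27R peaks (15%, 9.77 to 21.7%). Those with at least 3 fingers and no KRAB motif had 19 of 168 (11.3%, 6.95 to 17.1%). Zinc finger genes with other names differed from both: 1 of 94 with a KRAB motif (1.06%, 0.0269 to 5.79%) and 60 of 198 without (30.3%, 24 to 37.2%). Of those 60, 40 kept K27M and 38 kept EZHIP. Such Zfp members without a match to the motif kept K27M at 5 of 19 (26.3%, 9.15 to 51.2%) and EZHIP at 3 (15.8%, 3.38 to 39.6%). Zfp members with the motif kept K27M at 1 of 23 start sites (4.35%, 0.110 to 21.9%) and EZHIP at 2 (8.70%, 1.07 to 28.0%). Over all protein-coding genes, 31.6% of K27R start sites kept K27M and 28.2% kept EZHIP.

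Lists of named regulators were counted as well. Of 9 records (8 symbols) for regulators of retroelements or imprints, 2 overlapped a K27R peak: Zfp568, a silencer of a placental Igf2 promoter, over 6.54% of the body, and Zfp819, wholly. Zfp57 and Zfp445, which protect imprints, and Zfp809 did not, with nearest K27R peaks at 11.5, 7.75 and 28.5 kb. Of 15 developmental regulators without KRAB, 5 overlapped a K27R peak (4 by start site), near the background of 34.2% (28.2% by start site). They were Zfp423, Zfp536, Zfp503 and Zfp488, each with its start site covered, and Zfp516, a regulator of brown fat, over 5.83% of the body. Zfp521 and Zfp238 did not overlap, and a K27R peak lay 4.19 kb from Zfp238. Of the pluripotency-linked genes, 3 of 4 symbols were found (Zfp42, also called Rex1, Zfp296 and Zfp322a) and none overlapped any list. The same held for the 3 RNA-binding CCCH genes Zfp36, Zfp36l1 and Zfp36l2. Among the KRAB partners, which are no members, Trim28 had no peak and Setdb1 overlapped K27R over 4.16% of its body, the only 1 of 12 records to do so.

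Reads of near-identical copies cannot be placed with certainty, so uniqueness was measured. The median share of 32-mers that occur once in the genome was 90% in clustered and 94% in isolated members, as in other genes. Among the 237 members with at least 90% unique 32-mers, 42 bodies (17.7%, 13.1 to 23.1%) and 31 start sites (13.1%, 9.06 to 18%) were in the K27R list, against 35.3% and 29.4% of other genes with that uniqueness. Among the 125 with less, 25 bodies (20%) and 17 start sites (13.6%) were, and no start site was in the K27M or EZHIP list. Zfp955a and Zfp955b, near copies with 9% unique 32-mers each, were both wholly in one K27R peak, so that their separate calls are uncertain.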

How the data were processed

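H3K27me3 ChIP-Seq peak lists of 3 of 5 MEF libraries (K27R, K27M and EZHIP; 1 per group) were used. Groups came from the sample titles, and the members and lists were chosen with earlier results of these data known. Per the methods, bowtie1 (Bowtie 1.0.0 in the submitters' processing notes) placed the reads on mm9 and on the genome of a second species, and the authors called broad peaks with MOSAiCS-HMM from binned read counts. The lists deposited hold start and end positions on a grid of 200 bp, with 12845 (K27R), 3736 (K27M) and 4992 (EZHIP) regions and no score or depth, so depth is unknown here. The smallest distance between neighbouring regions was 0, 5200 and 1200 bp. The paper gives a single joining distance for its H3K27me3 peaks, larger than each of these. How each list was joined is therefore uncertain, and the lists may not have been joined alike.

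Positions were counted from 1. Genes, proteins and sequences came from GENCODE vM1 and the NCBIM37 (mm9) genome, with Python 3.11.15, numpy 2.4.6, pandas 2.3.3, scipy 1.17.1, numba 0.67.0 and Biopython 1.88. Overlap meant at least 1 bp. Fingers were matches of Cys-Cys-His-His spacing and KRAB a short conserved motif in the translated longest coding sequence. CpG islands (22374 on the autosomes) were runs of at least 200 bp with at least 50% G and C and an observed-to-expected CG ratio of 0.6, and 100 32-mers were sampled per gene. The code was tested on simulated peaks and genes. Named members were those with a residual peak, the 5 with the longest K27R cover among the rest, the clusters with most members or most K27R cover, and the regulator lists. The Zfp709 to Zfp961 and Zfp560 to Zfp846 clusters, Zfp238 and the Zfp955 pair were added after their values were seen. Alternatives changed the overlap, window, peak width, joining, cluster distance and members counted.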

Additional observations from a re-analysis of the deposited data

How the results depend on the processing

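The 25 shares were recomputed under 11 settings, giving 164 values, of which 140 stayed within the 95% interval of the reported value and 24 did not. For summed lengths that interval counted bins of 200 bp as if they were independent. Leaving out a replicate was not possible with 1 library per group. Requiring peaks over at least 50% of the body gave, for K27R, 10.5% of members, 10.7% of clustered and 10.3% of isolated members. It gave 0.276% of members for K27M and 0% for EZHIP, and 0% of clustered and isolated members in both. A peak within 5 kb of the start site gave 27.6% of members, 25.4% of clustered and 30.3% of isolated members for K27R, and 4.97% of members for EZHIP. Peaks of at least 5000 bp covered 0.815% (K27M) and 0.465% (EZHIP) of the summed bodies, and left 0% of clustered bodies and start sites in EZHIP. Merging peaks up to 10000 bp apart covered 0.862% in EZHIP. Without chromosome 7, 24.8% of clustered bodies and 20% of clustered start sites were in K27R. The settings on uniqueness, on 1 record per symbol and on the 3 longest genes were chosen after seeing the data. Members with at least 90% unique 32-mers were covered to 18.6% by K27R, and without the 3 members with the longest K27R cover the summed cover was 8.78% (K27R), 0.721% (K27M) and 0.451% (EZHIP). Isolated members were above clustered members in the K27R body share in 6 of 8 settings and below in 2. No paired analysis was possible because no result came from a test. Depth was unknown, so a missing peak may be a low signal.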

Other observations

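The 9 Zfp genes of chromosome X lie outside the rule used above. Of these, 7 overlapped a K27R peak and 6 had their start site inside one. The other 923 protein-coding genes of chromosome X overlapped a K27R peak in 79% and had their start site inside one in 74.5%, so the counts were near those of the chromosome. Zfp280c, Zfp36l3, Zfp185, Zfp275 and Zfp92 were covered over 52.9, 3.71, 44.2, 16.5 and 17.3 kb with their start sites included, and Zfp449 over 11.9 kb without it. Zfp182 and Zfp300 had no peak in any list. Zfp711, a gene linked to intellectual disability in people, had 7.67 kb in K27R and 4.07 kb in K27M, with its start site in both, and no EZHIP peak. Of the other genes of the chromosome, 17% overlapped a K27M peak and 4.44% an EZHIP peak. No member of this set overlapped an EZHIP peak.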
